A study of Homo sapiens with 4 samples.

Results

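Accessible chromatin at the starts of 5 metabolic genes, CS, GART, MTHFD2, ATP5O and P4HA1, was examined in ATAC-seq peak lists of OVSAHO, an established ovarian cancer cell line. In ATAC-seq a transposase cuts and tags DNA that is not covered by nucleosomes. The genes were chosen from the measured peaks: each starts at a region with a narrow peak in both libraries of the test cells and in neither library of the control cells. Such regions numbered 220 of 17554 merged narrow regions (1.25%), and the 5 genes account for 5 of the 220. Leaving out a library removes a condition, so the number of such regions could then hardly fall. Without a test library it was 1821 (test 1) or 1352 (test 2), and without a control library 279 (control 1) or 878 (control 2). All peaks within 10 kb of the 5 loci were then collected, which gave 12 narrow and 22 broad peaks in 286.5 kb of sequence. The absence of a narrow control peak is therefore the ground on which the genes were picked, and it is described below without a test.

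Test cells, named OVSAHO-A2-siA4, carried more SMARCA2, labelled stable, and less SMARCA4, which was knocked down; control cells, named OVSAHO-Ctrl-siNC, are labelled WT. SMARCA2 and SMARCA4 are the alternative motor subunits of the SWI/SNF nucleosome remodelling complexes. Carboplatin, a drug whose platinum binds and links DNA strands, was present at 25 µM for 2 days in both groups, and none of the 4 libraries is from untreated cells. There were 2 libraries in each group, called test 1, test 2, control 1 and control 2. Whether replicates were separate cultures, and whether the line with raised SMARCA2 was a single clone, was not given in the sources used here. The libraries differ in depth and fragment size. Narrow peaks rested on 6146272 to 7531794 nucleosome-free fragments in test 1, test 2 and control 2 and on 15828837 in control 1, broad peaks on 22432549 to 31515662 fragments of any size. Control 1 stands apart from the other 3: its nucleosome-free share was 50.2% against 27.4% to 29.6%, and its mean fragment was 131 bp against 178 to 182 bp.

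The 5 genes belong to different branches of metabolism. CS encodes citrate synthase, which joins acetyl-CoA and oxaloacetate at the entry to the citric acid cycle in mitochondria. ATP5O, now named ATP5PO, encodes a stalk subunit of the mitochondrial ATP synthase, which makes ATP from the proton gradient. GART encodes an enzyme with several activities of the purine synthesis pathway, and MTHFD2 a mitochondrial enzyme of folate metabolism that supplies formate for such synthesis and is abundant in many tumours. P4HA1 encodes the catalytic subunit of a prolyl 4-hydroxylase that modifies collagen in the endoplasmic reticulum. Promoters of widely expressed genes are commonly free of nucleosomes just upstream of the start, and such sites are among the usual accessible sites of an ATAC-seq library.

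The bases upstream of each annotated start are shown because the peaks described below lie at or near the starts. They are the 250 bases before the start in RefSeq's promoter table of build GRCh38.p14, in which all 5 genes were matched, ATP5O by its current symbol. In that build they lie at chr12:56300331-56300580 for CS, chr21:33542893-33543142 for GART, chr2:74198365-74198614 for MTHFD2, chr21:33915805-33916054 for ATP5O and chr10:73096867-73097116 for P4HA1, on the plus strand for MTHFD2 and on the minus strand for the others. The peak lists are on hg19. Locus lengths in hg19 and gene lengths in GRCh38 differ by 62 bp for CS, 2 bp for GART, 2216 bp for MTHFD2, 50 bp for ATP5O and 103 bp for P4HA1. The annotated ends are therefore not the same, and the starts need not be the same base either. Peak positions count from the hg19 starts and motif positions from the GRCh38 starts. The positions of motifs and peaks can thus not be lined up, and peaks were not placed on these letters base by base. Capitals mark matches of the searched motifs, in the direction of transcription.
CS: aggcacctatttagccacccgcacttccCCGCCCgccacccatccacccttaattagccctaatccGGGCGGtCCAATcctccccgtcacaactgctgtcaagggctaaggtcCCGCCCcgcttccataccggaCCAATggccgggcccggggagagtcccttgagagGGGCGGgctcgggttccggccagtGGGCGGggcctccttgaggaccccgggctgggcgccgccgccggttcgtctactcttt
GART: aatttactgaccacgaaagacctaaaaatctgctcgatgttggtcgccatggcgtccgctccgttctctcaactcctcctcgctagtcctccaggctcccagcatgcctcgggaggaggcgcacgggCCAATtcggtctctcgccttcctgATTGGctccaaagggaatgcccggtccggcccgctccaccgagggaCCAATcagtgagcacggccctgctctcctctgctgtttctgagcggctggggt
MTHFD2: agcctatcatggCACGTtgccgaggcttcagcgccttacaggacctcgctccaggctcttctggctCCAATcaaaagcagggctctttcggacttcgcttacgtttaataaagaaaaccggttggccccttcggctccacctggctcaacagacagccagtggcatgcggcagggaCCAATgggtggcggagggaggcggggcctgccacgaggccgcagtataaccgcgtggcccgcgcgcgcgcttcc
ATP5O: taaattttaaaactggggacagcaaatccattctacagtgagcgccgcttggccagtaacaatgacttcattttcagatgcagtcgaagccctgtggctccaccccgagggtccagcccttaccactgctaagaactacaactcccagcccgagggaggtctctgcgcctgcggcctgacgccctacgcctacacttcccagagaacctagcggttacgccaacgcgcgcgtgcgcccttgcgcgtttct
P4HA1: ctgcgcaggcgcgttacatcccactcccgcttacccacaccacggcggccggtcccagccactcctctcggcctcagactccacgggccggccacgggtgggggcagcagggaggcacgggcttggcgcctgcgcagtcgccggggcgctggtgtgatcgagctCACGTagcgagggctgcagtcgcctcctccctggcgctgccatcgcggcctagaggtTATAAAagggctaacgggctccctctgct

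Of 10 motifs searched on both strands over 250 bases before and 50 after the start, the CCAAT box (CCAAT) was found at 3 of the 5 starts, those of CS, GART and MTHFD2, where 34.6% of all 35116 promoters of the table hold it. GART had 3 copies, at positions -123, -99 and -53, the middle copy on the opposite strand. CS had 2 copies, at -177 and -116, and so did MTHFD2, at -184 and -74. The GC box (GGGCGG) was found at CS, with 5 copies between -222 and -58, and at ATP5O, after its start at 28, against 45.0% of promoters. The TATA box (TATAAA) was found only at P4HA1, at -29, against 11.5% of promoters. ATP5O held the YY1 letters (AAGATGG) at 39, after its start, against 5.84%. The letters ACGTG, a form of the core of the hypoxia response element that also lies within the E-box, were found at P4HA1 and MTHFD2. They lay at -86 and -238, against 21.4% of promoters, and no other form of this core was searched. No match was found at the 5 starts for the E-box (CACGTG), the ETS letters (CCGGAAG), GCATGCGC (part of the NRF1 site), TGATGNAAT (ATF4 with C/EBP) or the CRE (TGACGTCA), which 7.26%, 10.3%, 3.05%, 0.991% and 1.85% of promoters hold. Copies of a motif on these windows are matches of letters and were not tested as binding sites. GC content ran from 58.3% at ATP5O to 70.3% at P4HA1, against a median of 58.7% over the table. The ratio of observed to expected CpG lay between 0.790 and 0.918 in the 5, against a median of 0.579.

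Narrow peaks, called on nucleosome-free fragments, sat on the start or just upstream of it in both test libraries at each of the 5 genes. Fold enrichment, the authors' value for a peak, is the pileup of fragments over the local background of the same library. It is not normalized between libraries, so each peak was also placed among the peaks of its own list. At CS the region on chromosome 12 at 56694145 to 56694307 reached 12.1-fold enrichment in test 1 and 9.92-fold in test 2, from pileups of 17 and 14 fragments. These were percentiles 93.9 and 91.03 of their lists, and CS ranked first of the 220 regions by the lower of its percentiles. At GART, on chromosome 21 at 34915130 to 34915275, the values were 8.58 and 10.3, from 10 and 12 fragments, and the region ranked 3. CS was higher in test 1 and GART in test 2, so the order of the genes differed between the test libraries.

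The other 3 starts had lower and similar values. At MTHFD2, on chromosome 2 at 74425603 to 74425764, narrow enrichment was 8.21-fold (test 1) and 7.11-fold (test 2), from 9 and 8 fragments (rank 7). At ATP5O, on chromosome 21 at 35288087 to 35288247, it was 7.73 and 7.16, from 9 and 8 fragments (rank 6). At P4HA1, on chromosome 10 at 74856745 to 74856890, it was 7.87 and 6.88, from 10 and 8 fragments (rank 9). These 3 genes lay within 0.48 of each other in test 1 and within 0.29 in test 2, less than the difference between the test libraries at any of the 3 (1.10 at MTHFD2, 0.571 at ATP5O and 0.990 at P4HA1). Their ranks are near one another too, and the region at rank 11, on chromosome 6 at 43027159 to 43027280, had 8.16 and 6.77. The weakest of the 10 peaks had a −log10 q of 5.80 and the strongest 16.7, where the authors' threshold is a q of 0.05.

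Neither control library had a narrow peak at any of the 5 starts, by the choice of the genes. What lay below the threshold there is not in the lists. The 136 narrow peaks of control 2 nearest to the threshold, with a −log10 q under 1.5, had fold enrichments of 3.73 to 4.08 and a median pileup of 4 fragments, and the 325 of control 1 had 3.06 to 3.91 and a median of 5 fragments. The choice of the genes fixes that their test peaks stand above the threshold, so these bands only describe what a call took in each list. The counts are small. The 95% exact Poisson interval of a pileup was 9.90 to 27.2 for the 17 fragments at CS in test 1 and 3.45 to 15.8 for the 8 fragments at MTHFD2, ATP5O and P4HA1 in test 2. A pileup of 4 fragments, the median of control 2 near the threshold, has an interval of 1.09 to 10.2. It overlaps the intervals of all 10 test peaks. That pileup is not a value of control 2 at these starts, and the counts are not scaled for depth. The overlap therefore does not compare test and control cells at the 5 genes. The intervals cover counting error only, and with all duplicates kept the fragments need not be independent. The intervals do not correct for reading the pileup at a summit.

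**Figure D1:**
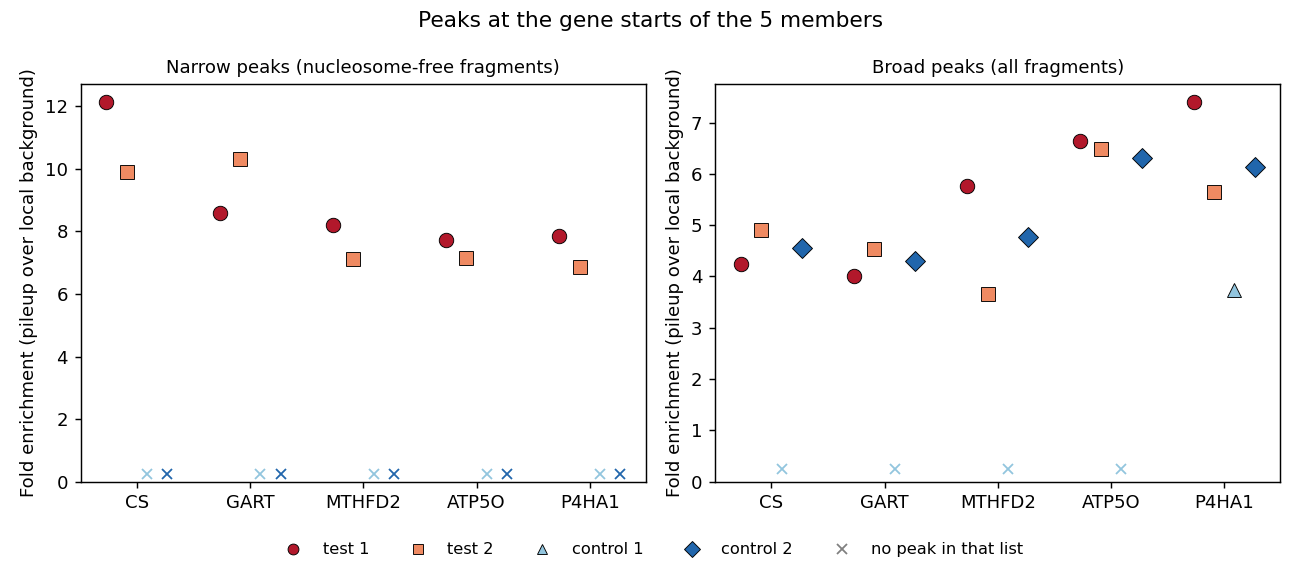
Fold enrichment (vertical axis, a ratio without unit) of the peak at each gene start (horizontal axis) in the narrow lists (left) and the broad lists (right), with 1 symbol per library. Crosses near the bottom mark a library with no peak there and carry no value. On the left the 10 test symbols lie between 6.88 and 12.1 with no control symbol, and on the right control 2 has a value at all 5 genes, from 4.30 to 6.30, among those of the test libraries.

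Broad peaks, called on fragments of any size, gave another picture of the control cells. Control 2 had a broad peak over the start of all 5 genes, and control 1 had one over the start of P4HA1 alone. Among the 220 test-only narrow regions, control 2 had a broad peak at 82.3% and control 1 at 5%. Test 1 and test 2 both had broad peaks at all 5 genes. Over the 220 regions test 1 had one at 83.2%, test 2 at 80% and both of them at 74.5%. The broad peaks contain the fragments of the narrow calls, so they are not an independent measure of the same sites.

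In fold enrichment the broad peak of control 2 lay between those of the test libraries at 4 of the 5 starts. At CS test 1 had 4.24, test 2 had 4.91 and control 2 had 4.56, so control 2 lay between the test libraries. At GART it was 4.01, 4.54 and 4.30, again with control 2 between them. At MTHFD2 it was 5.77, 3.66 and 4.77, the widest gap between the test libraries in proportion, with control 2 inside it. At P4HA1 it was 7.40, 5.64 and 6.14 in the same order, and control 1 stood at 3.74, below the other 3. Only at ATP5O was control 2 the lowest of the 3, at 6.30 against 6.65 and 6.47, a difference of the same size as that between the test libraries. The mean test value divided by the control 2 value was 1.002 at CS, 0.994 at GART, 0.988 at MTHFD2, 1.04 at ATP5O and 1.06 at P4HA1.

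The median of these 5 ratios was 1.002, and over all 4980 merged broad regions with a peak in test 1, test 2 and control 2 it was 1.0001, with quartiles of 0.910 and 1.09. The 5 genes thus spanned 0.988 to 1.06, inside the middle of that distribution. Over the 158 test-only narrow regions that have a broad peak in those 3 libraries the median was 1.03, and over 588 regions with a narrow peak in these 3 libraries and not in control 1 it was 1.01. Control 2 lay between the test libraries at 4 of the 5 starts and in 37.1% of the 4980 regions. These are descriptions of 1 control library against 2 test libraries, since control 1 gives a broad value at P4HA1 only. With 2 libraries a group an exact two-sided permutation test cannot give a p below 0.333, and the genes were chosen on the same libraries, so no test was run.

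**Figure D2:**
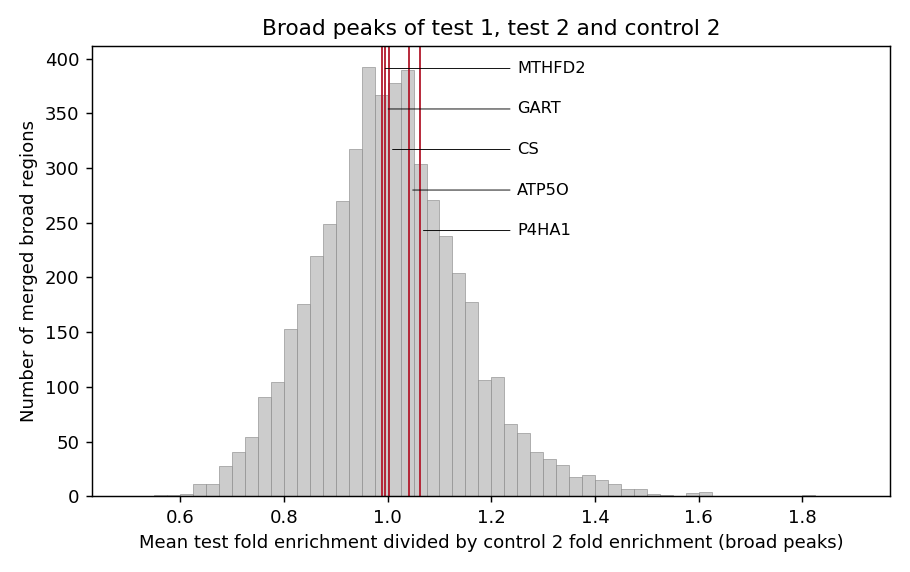
Histogram of the mean fold enrichment of test 1 and test 2 divided by that of control 2 (horizontal axis, a ratio) over the 4980 merged broad regions called in all 3 libraries, with the number of regions on the vertical axis. Vertical lines mark the 5 genes, which lie between 0.988 and 1.06, near the centre of the distribution.

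The rank of the starts in the whole lists differed between peak types. ATP5O and P4HA1, the lowest of the 5 in mean narrow fold enrichment of the test libraries, were the highest in broad fold enrichment. ATP5O stood at percentiles 95.8, 98.5 and 97.3 of the broad lists of test 1, test 2 and control 2, and P4HA1 at 98.3, 96.1 and 96.8. CS stood at percentiles 57.7, 91.1 and 79.6 of these lists, GART at 48.3, 86.3 and 72.8, and MTHFD2 at 90.1, 53.1 and 83.5. The test libraries differed most at MTHFD2, GART and CS, and control 2 lay between them in percentile at all 5 starts. The first-ranked narrow start, that of CS, was thus near the middle of the broad list of test 1. In control 1 the P4HA1 peak was at percentile 72.2, with a −log10 q of 1.98. The broad peaks of control 1 nearest to the threshold had fold enrichments up to 3.51, below each of the 15 broad values of the other libraries at these starts. Such peaks reached similar values in the other lists, 3.42 in control 2, 3.53 in test 1 and 3.49 in test 2. Fold enrichment is not normalized between libraries, so this does not show what control 1 held at the starts where it had no peak.

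Widths and positions also differed among the genes. The summits of the narrow peaks lay between 113 bp upstream of the start, at P4HA1 in test 1, and 13 bp after it, at MTHFD2 in test 1, with a median of 53 bp upstream. All 10 narrow peaks lay between 158 bp upstream and 74 bp downstream. The narrow peak of P4HA1 ended 64 bp before the start in test 1 and 13 bp before it in test 2, and GART was covered across its start in both. The peak of test 2 was the longer at all 5 genes. It reached further downstream at 4 of them, and at GART both ended at 68 bp. Broad peaks were 177 to 1108 bp long. GART had the longest in each of its 3 libraries, 893 bp in test 1, 867 bp in test 2 and 1108 bp in control 2, reaching from 143 to 273 bp upstream to between 714 and 834 bp into the gene. In GRCh38 GART has a further annotated start 775 bp downstream of the first, and SON, a gene for a splicing factor read in the opposite direction, starts 145 bp upstream of the GART locus. The accessible region at GART can therefore not be assigned to GART alone.

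**Figure D3:**
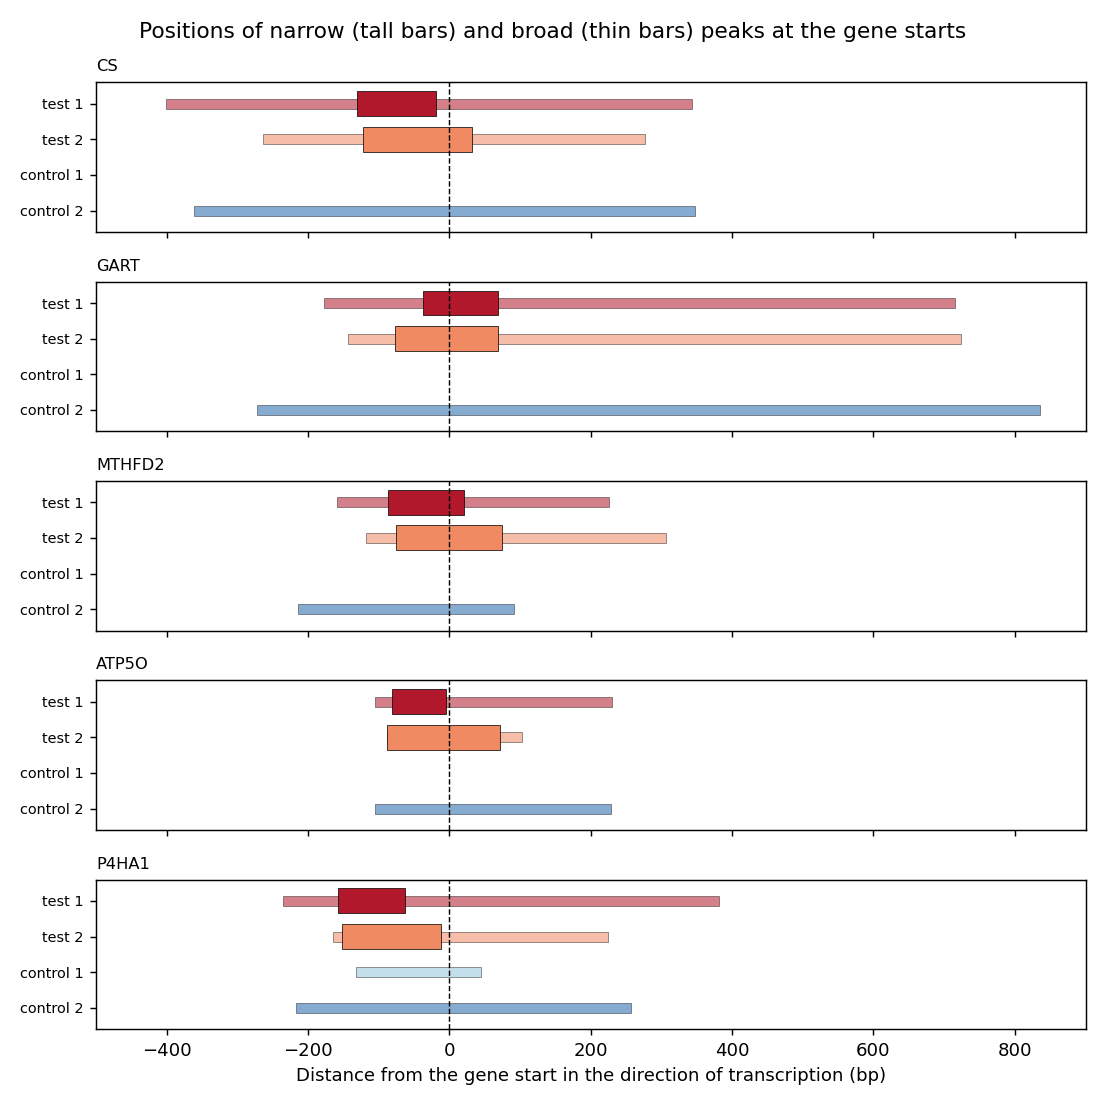
Position of the peaks at the 5 gene starts, with the distance from the start in the direction of transcription on the horizontal axis (bp, dashed line at the start) and 1 row per library. Tall bars are narrow and thin bars broad peaks. Narrow bars appear in the test rows only, between -158 and 74 bp, and broad bars also in the control 2 row of every gene and in the control 1 row of P4HA1.

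The height of the broad peaks before division by the local background was also compared, as fragments in the pileup per 1000000 fragments of the library. At CS it was 1.07 in test 1 and 1.03 in test 2 against 0.587 in control 2, a mean ratio of 1.80, while the fold enrichments were alike. The local background at the same peak was 0.219 and 0.177 per 1000000 fragments in the test libraries against 0.0979 in control 2, a ratio of 2.02. A pileup ratio at least as high was found in 29 of the 4980 regions (0.582%), and a background ratio at least as high in 14 (0.281%). This feature of CS was singled out after its values were seen. The medians over all broad peaks of chromosome 12 were closer, at 0.0916, 0.0793 and 0.0778 per 1000000 fragments in test 1, test 2 and control 2. The background is taken over 10000 bp around a peak, unless a genome-wide minimum is higher. For broad peaks, whose values are averages along the region, it is approximate. The part of copy number and of neighbouring signal in the values at CS was not tested.

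At ATP5O the pileup per 1000000 fragments was 1.02 and 0.726 in the test libraries against 0.637 in control 2, and at GART 0.559 and 0.530 against 0.446. Both test libraries were above control 2 at CS, GART and ATP5O, as in 26.9% of the 4980 regions. The median ratio of mean test to control 2 pileup was 1.10 over the 158 test-only regions with these broad peaks. It was 0.977 over the 4980 regions and 0.981 over the 588. Broad pileups contain the fragments of the narrow calls, so these heights are not independent of the choice of the genes. At P4HA1 the pileups were 1.65 and 0.945 against 1.16, and at MTHFD2 0.795 and 0.491 against 0.702, so control 2 lay between the test libraries at both. The local background was solved from pileup and fold enrichment. Its ratio of test to control 2 was 1.41 at ATP5O, 1.29 at GART, 1.01 at P4HA1 and 0.880 at MTHFD2. The median over the 4980 regions was 0.958. Where fold enrichments are alike, this ratio follows that of the pileup and is not a separate observation. Before scaling, the control 2 background at ATP5O was 1.73 fragments, and at its broad peak 7553 bp upstream of GART it was 1.72. Whether these values sit at a genome-wide minimum of the background was not tested. ATP5O and GART are both on chromosome 21. The median background over all broad peaks of that chromosome was also higher in test 1 and test 2 (0.131 and 0.120) than in control 2 (0.0987). On chromosome 10, that of P4HA1, these medians were 0.125, 0.110 and 0.123, and on chromosome 2, that of MTHFD2, 0.101, 0.0933 and 0.0926. Control 1, at P4HA1, had 0.312 per 1000000 fragments over a background of 0.0601, the lowest of the 4 libraries in both. Its medians over all broad peaks, 0.332 and 0.0679, were also the lowest of the 4 libraries. The scaling is by number of fragments and not by their length. Control 1 fragments averaged 131 bp against 178 to 182 bp, and shorter fragments add less coverage each.

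**Figure D4:**
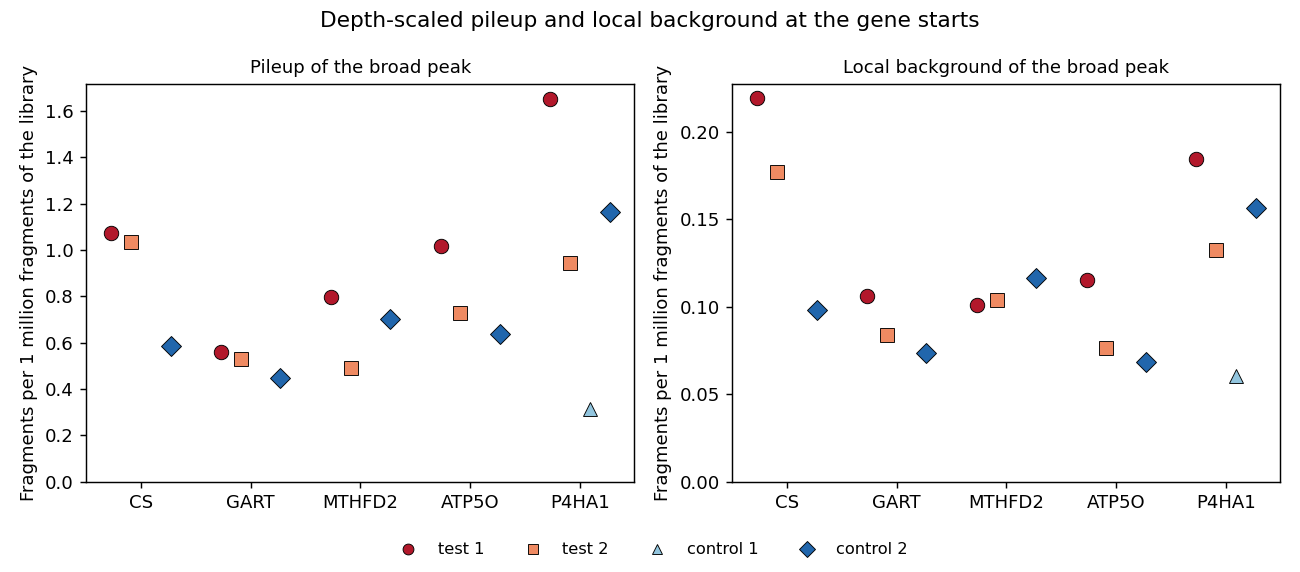
Pileup (left) and local background (right) of the broad peak at each gene start, in fragments per 1000000 fragments of the library (vertical axes), with genes on the horizontal axis and 1 symbol per library. At CS both test libraries lie above control 2 in pileup (1.07 and 1.03 against 0.587) and in background (0.219 and 0.177 against 0.0979), and at MTHFD2 the control 2 background is the highest, at 0.116.

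Away from the starts the 5 windows held few peaks. The CS window had a second site on chromosome 12, 4482 to 4916 bp beyond the far end of the locus, with a broad peak in test 1, test 2 and control 2 (fold enrichment 4.29, 3.77 and 5.31) and a narrow peak of 4.75 in test 1. Here control 2 was the highest of the 3. In GRCh38 the start of COQ10A, a gene for a coenzyme Q binding protein, lies 4757 bp beyond the end of CS. Its local background per 1000000 fragments was again higher in the test libraries, at 0.191 and 0.161 against 0.0814 in control 2.

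The remaining sites were each called in a single library. The ATP5O window had the only narrow peak of a control library in the 5 windows, in control 1 on chromosome 21 at 35267958 to 35268042, beyond the end of the gene by 7715 bp, with a fold enrichment of 7.503 from 10 fragments and a broad peak of 3.77 in the same library. Control 2 had a broad peak of 3.31 on chromosome 21 at 34922751 to 34923123, 7553 bp upstream of GART, with a −log10 q of 1.31, at the edge of the threshold. Test 2 had a broad peak of 3.27 within the P4HA1 locus, 78191 bp after its start. In all, narrow peaks in the windows numbered 6 for test 1, 5 for test 2, 1 for control 1 and 0 for control 2, and broad peaks 6, 7, 2 and 7 in the same order.

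The same calls in the other test-only regions were looked up. CS, GART, MTHFD2 and ATP5O shared 1 pattern, with a narrow peak in both test libraries only and a broad peak in test 1, test 2 and control 2 but not control 1. Of the 220 test-only regions 149 (67.7%) had this pattern, 145 of them outside the 5 windows, so it was the common pattern of such regions. The regions closest to these 4 genes over the 5 log2 fold enrichments were chr12:49463756-49463877, chr2:44395085-44395292 and chr10:29948101-29948183. The nearest, at a distance of 0.37 on the log2 scale, had narrow values of 10.5 and 7.66 and broad values of 5.095, 4.38 and 4.66 in test 1, test 2 and control 2. P4HA1, which also had a broad peak in control 1, was among the 11 of 220 regions with one.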

How the data were processed

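ATAC-seq peak lists of 4 OVSAHO libraries were used, grouped by their labels. Tagmentation and library preparation used a commercial kit, per the labels' protocols. The submitters' processing notes name build hg19 and, with no role stated, MACS2 2.2.7.1, Bowtie2 2.3.5.1, cutadapt 3.2, Picard, edgeR 3.34.1 and deepTools 3.5.1. Per the file headers, MACS2 2.2.7.1 called the peaks of each library on its own, on paired-end fragments with all duplicates kept, no control file, an effective genome size of 2.7e+09 and a q of 0.05. Narrow lists used nucleosome-free and broad lists all fragments, per the file headers. Pileup is deposited as a coverage signal, p and q are deposited on the −log10 scale, and fold enrichment, also deposited, is the ratio of pileup to background within 10000 bp in that library, each plus 1. None is normalized between libraries. Peaks whose background was set by a genome-wide minimum were not told apart. Among narrow peaks just past the threshold, the deepest library, control 1, had the lowest median fold enrichment (3.82 against 3.90 to 3.97).

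The 5 loci are hg19 coordinates with 10 kb either side, and MTHFD2 alone is on the plus strand. Narrow peaks of chromosomes 1 to 22 and X were joined into a region on 1 shared bp, and a region belonged to a gene within 1 kb of its start. The local background was solved from that ratio. Members, lists and the naming rule (all 5 genes, and the 3 test-only regions of the same call pattern nearest to them in log2 fold enrichment) were chosen with earlier results of these data known. The merging was tested on simulated regions, of which 4000 of 4000 were recovered. Alternatives were a −log10 q of 5 or more, lists of equal length, a shared 50% of the shorter peak, joining within 100 bp, 1 kb windows and leaving out libraries. Planned counts over pathway lists were not run, since no hg19 annotation was used here. Software was matplotlib 3.10.9, scipy 1.17.1, pandas 2.3.3, numpy 2.4.6 and Python 3.11.15.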

Additional observations from a re-analysis of the deposited data

How the results depend on the processing

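All 5 genes kept a test-only narrow peak in each of the 8 alternatives, which was mostly fixed in advance. Leaving out a library could not change the count. All their test peaks had a −log10 q of 5.80 or more, above the stricter threshold. Only joining within 100 bp could have added a control peak to these regions. Over all regions the test-only number moved from 220 to 83 at a −log10 q of 5 or more, 277 with lists of equal length, 210 with a shared 50%, 224 with joining within 100 bp, and 279 to 1821 when a library was left out. At a −log10 q of 5 or more, control 2 had a broad peak at 3 of the 5 starts (MTHFD2, ATP5O and P4HA1), test 1 at 4 and test 2 at 3, and control 1 at 0. The median ratio of test to control 2 in broad fold enrichment was then 1.05, over ATP5O and P4HA1 alone, because the other genes lost a peak in a library. With a single test library it was 1.03 without test 1 and 1.05 without test 2. At that threshold the windows held 3 broad peaks in test 2, 4 in control 2 and 0 in control 1. With 1 kb either side, control 1 had 0 narrow and 1 broad peak. The other 25 of 35 alternative values stayed within 1.5 times or the spread of the test libraries. They include the 8 counts of test-only genes, which were mostly fixed in advance. No paired analysis was possible because the results come from no test. Pileups of 8 to 17 fragments limit the narrow values.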
